A study of Canis lupus familiaris with 34 samples.

Results

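Canine osteosarcoma is a malignant bone tumour of the dog, and 24 cell lines grown from primary tumours were ranked here by 4 interferon-stimulated genes, ISG15, MX1, OAS1 and IFI44L. The ranking score was the mean log2 intensity of the 4 genes, each taken from its probe set with the highest mean, and the 6 highest lines were set against the 6 lowest. The series held 34 Affymetrix Canine_2 arrays from 31 dogs, namely 25 arrays of primary lines, 3 of lines from metastases and 6 of snap-frozen primary tumours. Both line arrays of OSCA_71 were averaged, so each of the 24 lines came from a separate dog. Values below are log2 of the intensity that the authors obtained with GCRMA, a background correction and normalization for these arrays, and a difference is the mean of the high lines minus the mean of the low lines. Levels at or below log2 5 lie near the background of the arrays. Because the score chose the lines, the 4 ranking genes are described without a test, and all other statements concern other genes.

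Type I interferons are secreted when a cell senses foreign or misplaced nucleic acid. They bind a receptor that signals through JAK kinases to transcription factors, STAT2 and IRF9 among them, which switch on many interferon-stimulated genes. The products degrade viral RNA, block translation, attach the ubiquitin-like protein ISG15 to other proteins and raise antigen presentation. Tumour cells can keep part of this programme switched on in culture.

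The high lines were OSCA_29 with a score of 13.12, OSCA_8 with 10.56, OSCA_12 with 8.64, OSCA_50 with 7.57, primary line 23 with 6.51 and OSCA_75 with 6.50. The low lines were OSCA_56 with 4.93, OSCA_23 with 4.88, OSCA_22 with 4.86, primary line 3 with 4.49, primary line 1 with 4.49 and primary line 2 with 4.31. Just outside stood primary line 4 at 5.85 and OSCA_41 at 4.94, so the low lines were continuous with the 12 middle lines while the upper lines were spread over a wide range. ISG15 reached 13.99 in OSCA_29 and 4.72 in OSCA_50, and MX1 was 3.45 in OSCA_75, so the high lines did not all carry the 4 genes alike. Of the dogs behind the high lines, 4 were Rottweilers, 1 was a Golden Retriever and 1 was labelled German Shephard. The low lines came from 3 Rottweilers, 2 Golden Retrievers and 1 dog of unknown breed. Age at diagnosis ran from 2 to 9.8 in the high group and from 7 to 11.19 in the low group, in a unit the labels do not state. The sex codes were F, M, MC and FS in the high group and MC and FS in the low group. Treatment labels were SOC, SOC with death before chemotherapy ended, PALL or none in the high group. They were SOC, SOC with death before the start of chemotherapy, AMP or none in the low group, and the codes are not spelled out. No treatment of the cells themselves is given in the labels. The middle lines, metastatic lines and tissues also came from further breeds, such as Saint Bernard, Rhodesian Ridgeback and Borzoi. Ages in these sets ran from 2.67 to 9.8, from 2.39 to 6.31 and from 2.67 to 11.91. Their sex codes were F, M, MC or FS, and their treatment labels SOC, PALL, AMP, ABX or none.

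**Figure D1:**
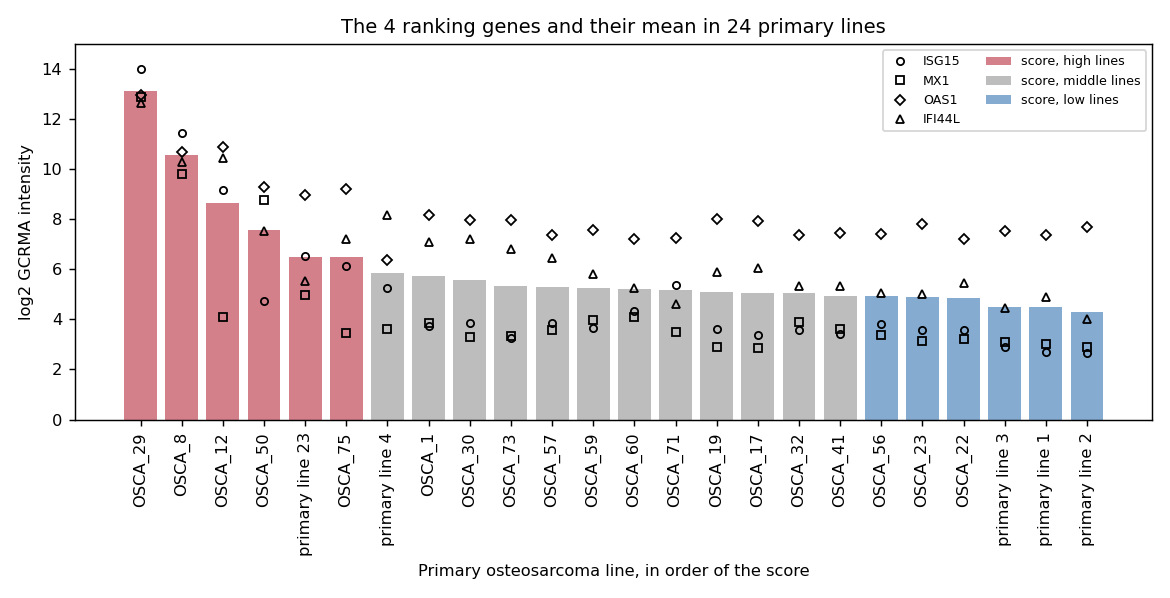
Score of each of the 24 primary lines (bars, log2 GCRMA intensity, from 0) and the 4 genes behind it (symbols), with lines in order of the score along the horizontal axis. The 6 high lines fall from 13.12 to 6.50, while the 12 middle and 6 low lines lie between 5.85 and 4.31.

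Sample titles carried 1 of 3 prefixes, whose meaning the labels do not give. All 6 tissues had title prefix 3, which among primary lines only primary line 23 and 1 array of OSCA_71 had. The metastatic lines had title prefix 2. A difference between the tissues and the other lines therefore cannot be told apart from a difference of prefix. Of the high lines 5 had title prefix 2 and 1 had title prefix 3, and of the low lines 3 had title prefix 1 and 3 had title prefix 2, so primary lines 1, 2 and 3 share a prefix that no high line has. The averaged OSCA_71 was counted with title prefix 2, so primary line 23 alone had title prefix 3 in the fits. Adjustment for title prefix therefore gave primary line 23 no weight in the difference. Fewer lines and an effect of the prefix cannot be told apart in the fits by prefix below. The median linear intensity of a column was 8.38 ± 0.126 (SD, n = 6) in high and 8.26 ± 0.172 (n = 6) in low lines (two-sided exact permutation p = 0.206). The 3′ minus 5′ difference of the actin control probe sets, a gauge of RNA integrity, was 1.19 ± 0.39 (n = 6) against 1.11 ± 1.51 (n = 6; exact permutation p = 0.933). The low mean rested on OSCA_56, which stood apart at 4.04, while the other 5 low lines lay between -0.35 and 0.93 and the high lines between 0.57 and 1.74. Without OSCA_56, an alternative chosen after seeing the data, the gauge was higher in the high lines, at 1.19 ± 0.39 (n = 6) against 0.53 ± 0.52 (n = 5; two-sided exact permutation p = 0.0346). The part of this gauge in the gene differences below was not tested. Leaving OSCA_56 out of the gene fit gave 406 higher and 389 lower genes, against 502 and 366 with it. Across the 7849 tested genes, which are not independent replicates, the high lines resembled each other less (median pairwise r = 0.882 over 15 pairs) than the low lines did (0.941 over 15 pairs). Of the labelled cell type's markers, type I collagen COL1A1, which fibroblasts make too, stood at 13.47 ± 0.46 (n = 6) in high and 13.87 ± 0.14 (n = 6) in low lines. Of 10 tested osteoblast and bone matrix genes 3 were over log2 5 in all 12 lines, COL1A1, COL1A2 and SPARC. The osteocyte and mineralization genes DMP1, MEPE and PHEX did not pass the filter and reached at most 3.40, 2.88 and 4.41 in any of the 24 lines. Markers of leukocytes were near background: all 14 tested monocyte and macrophage genes stood at or below log2 5 in all 12 lines, and none of 12 T and NK cell genes passed the filter on dim probe sets. The summed linear intensity of the macrophage list was 72.6 to 88.4 in high and 74.2 to 98.8 in low lines. These are bulk cultures, so a difference in the number of expressing cells and a difference in RNA per cell cannot be told apart.

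Among antiviral genes that did not enter the score, 6 of 22 tested effectors were called higher in the high lines and 1 was called lower, at a limma adjusted p under 0.05. Over all 7845 tested genes outside the score, 6.4% were called higher and 4.67% lower. The median difference of the 22 effectors was 0.93, against 0.07 over all genes. Because interferon-stimulated genes move together, lines picked on 4 of them will tend to differ in others, so these counts describe the lines and support nothing further. USP18, counted with the signalling genes, removes ISG15 from proteins and dampens the receptor, and was lowest in primary line 23 at 3.10 and highest in OSCA_29, with a median of 5.80 in the high lines, against 2.17 through 2.33 to 2.95 in the low lines. All 6 high lines exceeded every low line, and the difference was 4.04 (SE 0.79, adjusted p = 0.00545). The value in primary line 23 was near background, so the lack of overlap rests there on a small gap. HERC5, the ligase that attaches ISG15, ranged from 3.74 through 7.58 to 9.02 in high lines and from 2.35 through 3.08 to 3.61 in low lines, again without overlap (3.88, SE 0.79, adjusted p = 0.00633). The lowest high value of HERC5 was also near background. The activating and conjugating enzymes of the same pathway, UBA7 and UBE2L6, differed by 0.00 and 0.88 and were not called. Thus the ligase and the protease of ISG15 conjugation were higher, and the activating and conjugating enzymes of that pathway did not pass the test.

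MX2, a GTPase that blocks viral nuclear entry, was 9.97 in OSCA_29, 8.57 in OSCA_8, 8.66 in OSCA_50 and 5.46 in primary line 23, but 1.65 in OSCA_12 and 1.98 in OSCA_75. The low lines lay between 1.95 and 2.34, so OSCA_12 and OSCA_75 were no higher than the low lines although they ranked as high (difference 3.91, SE 0.98, adjusted p = 0.0167). IFI44, a paralogue of a ranking gene, ranged from 2.97 through 4.77 to 10.37 in high and from 1.97 through 2.60 to 2.85 in low lines, without overlap (3.16, SE 0.87, adjusted p = 0.0247). Its high median and all its low values were near background. As a paralogue it may share probes with IFI44L, and its value is uncertain to that extent. PARP14, an ADP-ribosyltransferase, differed by 2.59 (SE 0.72, adjusted p = 0.0267), and DTX3L, the ubiquitin ligase partner of PARP9, by 2.22 (SE 0.68, adjusted p = 0.0378). IFI35 differed by 2.49 (SE 0.67, adjusted p = 0.0232), with 11.07 in OSCA_29 and 4.59 in primary line 23, which was below the lowest of the low lines at 4.67. The aminopeptidase LAP3 went the other way: it ranged from 10.33 through 10.82 to 12.77 in high lines and from 11.87 through 12.15 to 12.62 in low lines (-1.10, SE 0.35, adjusted p = 0.0425). The groups overlapped through OSCA_75, whose LAP3 was above every low line, while the other 5 high lines were below every low line.

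The interferon signature therefore differed in make-up from line to line. Of the 22 effectors, OSCA_29 had 19 above the highest low line, OSCA_8 had 14, OSCA_12 had 13, OSCA_75 had 12, OSCA_50 had 11 and primary line 23 had 6. Primary line 23 also had 7 below the lowest low line, and the other high lines had 1 to 4. Its mean level over the effectors, 6.68, lay within the low range of 6.25 to 7.00. Middle lines had from 0 above the highest low line in OSCA_57 to 9 in OSCA_60 and 11 in OSCA_30. Several genes were high in OSCA_29 alone. DDX60, a helicase that aids RNA sensing, was 11.98 in OSCA_29 and between 3.03 and 4.40 in the other 5 high lines, against 2.46 to 3.08 in the low lines. The chemokine CCL5 was 10.41 in OSCA_29 and at most 3.10 in the other high lines. Without OSCA_29 and OSCA_8 the difference of USP18 was 2.44 and still called (adjusted p = 0.0068). In the same fit HERC5 kept 3.12 (adjusted p = 0.051), MX2 2.30 (adjusted p = 0.112), IFI44 1.51 (adjusted p = 0.125), PARP14 1.35 (adjusted p = 0.158), IFI35 1.70 (adjusted p = 0.121) and DTX3L 1.18 (adjusted p = 0.223), none of them called. Within title prefix 2 alone, with 5 high and 3 low lines, USP18 differed by 4.54 (adjusted p = 0.0852) and HERC5 by 4.01 (adjusted p = 0.108), as large as over all lines but without a call.

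**Figure D2:**
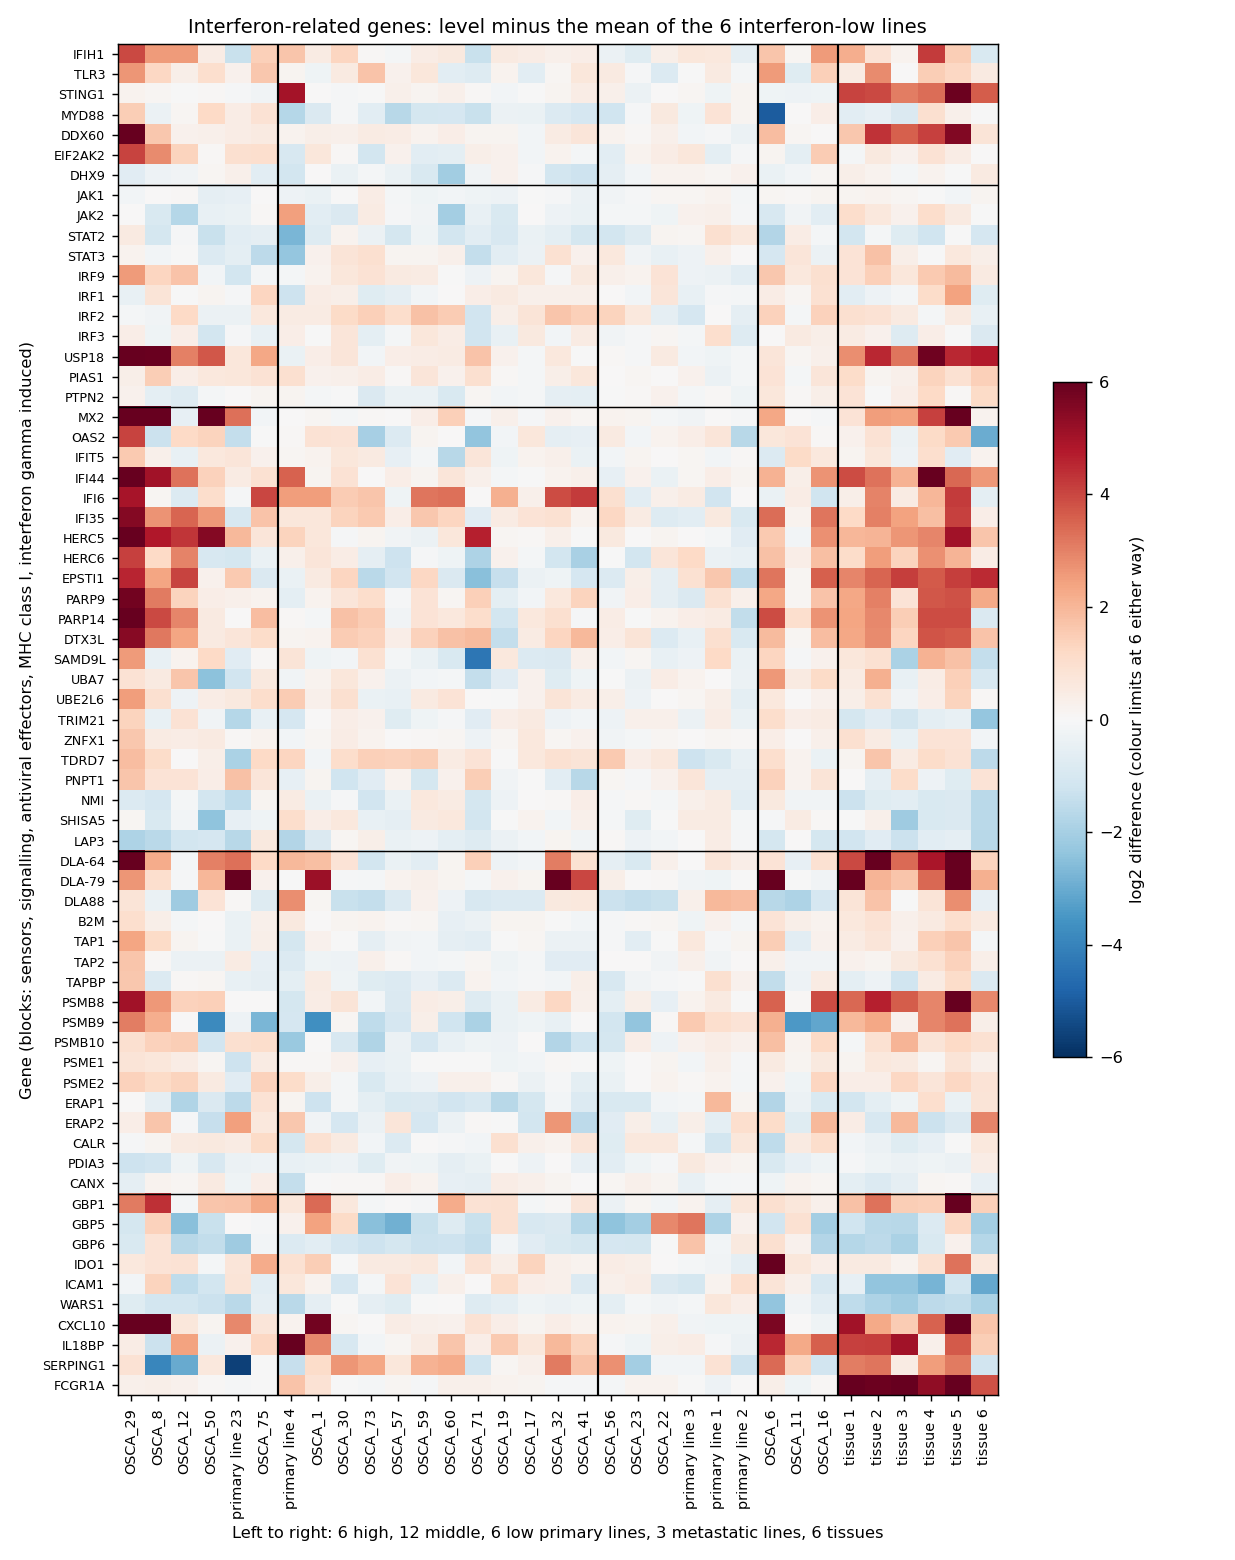
Level of 67 tested interferon-related genes (rows, in blocks by role) in 24 primary lines, 3 metastatic lines and 6 tissues (columns), as the log2 difference from the mean of the 6 low lines, with colours limited at 6 either way. Among the high lines red is fullest in OSCA_29 and thinnest in primary line 23, while CXCL10, DLA-64 and the STING1 row are red in tissues.

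Upstream of the response, 1 of 7 tested sensors and adaptors was called higher and 0 lower, against 6.4% and 4.67% of all genes. Their median difference was 1.19, and 6 of 7 differences were positive. The called gene was EIF2AK2, the kinase that halts translation on double-stranded RNA. It ranged from 4.17 through 5.29 to 8.13 in high and from 3.48 through 4.16 to 4.76 in low lines (1.72, SE 0.48, adjusted p = 0.0258), and OSCA_50 alone of the high lines lay within the low range. The RNA sensor IFIH1 was 9.91 in OSCA_29 and 4.62 in primary line 23, with a difference of 1.61 (SE 0.61, adjusted p = 0.0814). Adjusted for title prefix, EIF2AK2 lost its call (1.70, adjusted p = 0.0843) and IFIH1 gained one (2.62, adjusted p = 0.0239), and IFIH1 was called in 4 of 34 fits. The adaptor STING1 of the DNA sensing pathway differed by 0.01. Of 4 tested ligands and receptor chains 0 were called, among them IFNAR1 of the type I receptor, which was 4.01 ± 0.53 (n = 6) in high and 4.23 ± 0.61 (n = 6) in low lines. Interferon beta itself, IFNB1, did not pass the filter and reached at most 2.16 in any of the 24 lines. Of 11 tested signalling genes 2 were called higher and 0 lower, USP18 and PIAS1, an inhibitor of activated STAT proteins (0.74). The transcription factor STAT2 was 5.76 ± 0.68 (n = 6) in high and 6.26 ± 0.78 (n = 6) in low lines and was not called, and IRF9 differed by 0.70 without a call. IFIT1 and IFIT3 had no probe set with that single symbol and are not analysed here. The filter left 11 of 17 signalling genes on the array and 22 of 36 effectors. Some interferon-related genes that it removed were bright in OSCA_29, among them IRF7 at 7.93, RTP4 at 8.34, PLSCR1 at 7.39 and DHX58 at 6.93. No other primary line had any of these over log2 5, and they were not tested.

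Of 17 tested genes of MHC class I processing and loading 1 was called higher and 1 lower, close to the 6.4% and 4.67% of all genes, with a median difference of 0.21. The class I gene DLA-64 ranged from 2.50 through 5.22 to 8.75 in high lines and from 1.68 through 2.78 to 3.35 in low lines (2.63, SE 0.78, adjusted p = 0.0341). The groups overlapped because OSCA_12 lay within the low range. DLA class I genes are close copies of each other, so their probe sets may share signal. The inducible proteasome subunit PSMB8 was 8.31 in OSCA_29, 5.89 in OSCA_8 and 3.31 in OSCA_75, with a difference of 1.75 (SE 0.59, adjusted p = 0.0556). B2M, the light chain of class I molecules, was 13.31 ± 0.49 (n = 6) in high and 13.13 ± 0.18 (n = 6) in low lines. PDIA3, a chaperone of class I loading, was lower (-0.72). Of 11 tested class II genes 1 was called, RFXANK, part of the class II promoter complex (1.33), and 3 of the 11 stood over log2 5 in all 12 lines.

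Of 10 tested genes known chiefly as targets of interferon gamma 1 was called higher and 1 lower, against 6.4% and 4.67% of all genes. The GTPase GBP1 ranged from 2.34 through 4.45 to 6.83 in high and from 1.92 through 2.46 to 3.15 in low lines (2.16, SE 0.60, adjusted p = 0.0263). The T cell attractant CXCL10 was 9.52 in OSCA_29, 8.33 in OSCA_8 and 5.04 in primary line 23, and between 2.31 and 2.86 in the other 3 high lines, against 1.89 to 2.43 in low lines (3.01, SE 1.04, adjusted p = 0.0594). The tryptophanyl-tRNA synthetase WARS1 was lower in high lines, from 9.48 through 9.99 to 10.56, than in low lines, from 10.52 through 10.98 to 11.76 (-1.06, SE 0.26, adjusted p = 0.0154). Of 14 tested cytokines and chemokines of the NF-kB list 1 was called higher and 0 lower, close to the 6.4% of all genes called higher. The called gene was the monocyte attractant CCL8. It was 8.03 in OSCA_29, 8.56 in OSCA_8 and 8.21 in OSCA_50, and between 2.95 and 3.14 in the other 3, so that 3 high lines stood far above and 3 at the level of the low lines, which ran from 2.94 to 3.34 (2.58, SE 0.80, adjusted p = 0.0402). CCL8 was called in 15 of 34 fits, and not when OSCA_29 and OSCA_8 were left out together (1.26, adjusted p = 0.277).

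Samples that the ranking did not use gave values for the same genes. Among the metastatic lines OSCA_6 had a score of 7.56, OSCA_16 of 7.21 and OSCA_11 of 5.22. Of the 22 effectors OSCA_6 had 16 above the highest low primary line, OSCA_16 had 13 and OSCA_11 had 4, so the metastatic lines with a high score also had most effectors raised. USP18 was nevertheless 3.15, 2.73 and 2.56 in OSCA_6, OSCA_16 and OSCA_11, near the low primary lines. In the 6 tissues the score ran from 5.91 in tissue 6 to 10.71 in tissue 5. A limma fit of each gene on the score over the 6 tissues called 0 of 7845 genes at an adjusted p under 0.05 (0% of genes; smallest adjusted p = 0.137), while 519 (6.62%) had an unadjusted p under 0.05, and 305 of them (3.89%) had a positive slope. Slopes were positive for 19 of 22 effectors, for 13 of 17 class I genes and for 10 of 10 interferon gamma targets. Over the 71 tested genes of the 6 interferon lists 59 slopes were positive (83.1%), against 46.2% of all genes. Because interferon-stimulated genes move together, these counts and those of the metastatic lines describe the samples and support nothing further. DLA-64 had a slope of 1.26 per unit of score (adjusted p = 0.137) and ran from 3.97 in tissue 6 to 10.25 in tissue 5. In tissues, unlike the high and low lines, macrophage markers were abundant: the summed intensity of the 14 genes was 5896 to 27404, and 12 of 14 slopes were positive. Their part in the tissue values was not tested. The middle line named primary line 4 had a summed intensity of 14473, inside the tissue range, while the other middle lines reached at most 209. Among the 12 middle lines, whose scores span only 4.94 to 5.85, the slope fit called 0 genes (0%; smallest adjusted p = 0.525), and 722 (9.2%) had an unadjusted p under 0.05. Of the 22 effectors 14 had a positive slope there. OSCA_71 gave both a line and a tissue, tissue 5, and the score was 5.18 in the line and 10.71 in the tissue. The dog of the middle line OSCA_73 also gave tissue 6, and there the score was 5.35 in the line and 5.91 in the tissue.

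**Figure D3:**
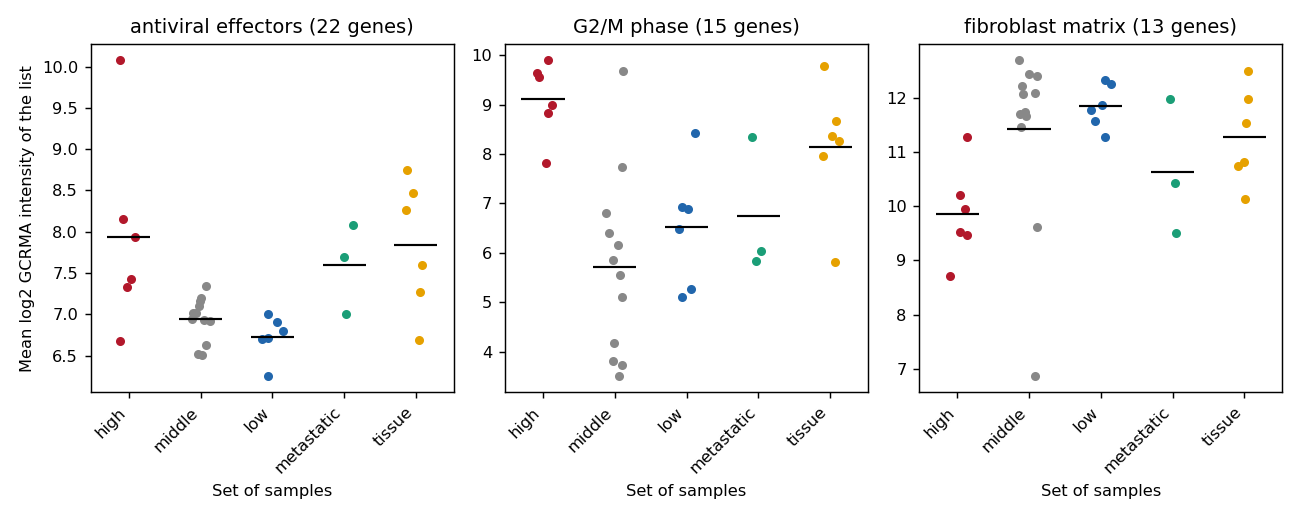
Mean log2 GCRMA intensity of 3 gene lists in each sample (points) by set of samples, with a black line at the mean of the set; the vertical axes differ and do not start at 0. Effectors and G2/M genes are higher and fibroblast matrix genes lower in most high lines, and OSCA_71 is the uppermost middle line for G2/M at 9.68.

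Beyond the interferon response the lines differed in many genes. In limma 502 genes were called higher and 366 lower in the high lines, out of 7845 (11.1% in either direction), and 1378 (17.6%) and 942 (12%) had an unadjusted p under 0.05 in these directions. In 211 genes (2.69%) every high line exceeded every low line, and in 132 (1.68%) every high line was below. Of the 868 calls 11 higher and 3 lower ones belonged to the 6 interferon lists. The calls changed in the fits by prefix, which rest on fewer lines, and with single lines left out. Adjusted for title prefix, 142 genes were called higher and 130 lower, of which 121 and 89 were shared with the first fit. Within title prefix 2 alone 1 gene was called higher and 0 lower. Leaving out OSCA_8 gave 207 and 161 calls, leaving out primary line 1 gave 189 and 131, leaving out primary line 2 gave 251 and 164, and leaving out primary line 3 gave 223 lower ones. Without both OSCA_29 and OSCA_8, 103 and 74 were called.

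The 15 genes with the largest called rise were CA2, TSPAN8, TSPAN13, BMP7, NRN1, TAC1, EPCAM, HOXB7, WWC1, NID2, CXCL14, RGS17, SLC1A1, CXADR and SERPINB2. None of the 15 is a member of the interferon lists, and EPCAM is the 1 member of the epithelial list. EPCAM, an adhesion molecule of epithelia, was 12.19 in OSCA_50, 8.84 in OSCA_29, 8.24 in primary line 23, 7.83 in OSCA_8, 4.89 in OSCA_75 and 1.89 in OSCA_12. All 6 low lines lay between 2.06 and 2.54 and all 12 middle lines at or below 3.39, so that EPCAM was above background in 4 of the high lines and in no other primary line (5.01, SE 0.96, adjusted p = 0.00509). Among metastatic lines it was 11.34 in OSCA_6. The other tested epithelial gene, the keratin KRT18, was 9.03 in OSCA_12 and between 2.33 and 4.29 in the other high lines, and thus was not high in the lines with EPCAM, although metastatic OSCA_6 had both, with KRT18 at 13.51. The other 5 epithelial genes on the array, CDH1, CLDN4, KRT7, ESRP1 and KRT8, did not pass the filter. They reached at most 2.74, 2.34, 4.65, 5.79 and 7.26 in any of the 24 lines, the last 2 of these in OSCA_8. In the other lines with EPCAM, ESRP1 was 5.45 in primary line 23, 4.68 in OSCA_50 and 3.51 in OSCA_29. Middle and low lines had ESRP1 at 3.83 or less, and it was not tested. CXADR, a tight junction protein, ranged from 2.93 through 8.84 to 10.40 in high and from 2.83 through 3.48 to 3.84 in low lines, with only OSCA_75 inside the low range (4.43, SE 1.13, adjusted p = 0.0183). The tetraspanin TSPAN8 ranged from 3.10 through 10.26 to 12.86 against 2.77 through 2.94 to 3.18 (5.92, SE 1.22, adjusted p = 0.00633), with OSCA_75 again at the low level. TSPAN13, another tetraspanin, differed by 5.88 (SE 1.11, adjusted p = 0.00493), and its groups overlapped through OSCA_12 at 5.08 and OSCA_56 at 7.93.

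The largest difference was that of CA2, a carbonic anhydrase of osteoclasts and many epithelia. It was 13.87 in OSCA_12, 12.84 in OSCA_8, 12.65 in primary line 23, 8.36 in OSCA_29, 3.92 in OSCA_50 and 2.37 in OSCA_75, against 2.08 to 2.59 in low lines (6.67, SE 1.77, adjusted p = 0.0217). OSCA_75 lay inside the low range. BMP7, a bone morphogenetic protein, was 11.42 in OSCA_8, 10.73 in primary line 23 and 9.69 in OSCA_50, and 1.91 in OSCA_12, against 1.73 to 2.70 in low lines (5.65, SE 1.31, adjusted p = 0.0122). TAC1, the precursor of substance P, was between 9.21 and 10.19 in OSCA_29, OSCA_8, OSCA_50 and primary line 23, and 1.64 and 2.29 in OSCA_12 and OSCA_75. The low lines lay between 1.59 and 2.85, so TAC1 split the high lines 4 to 2 (5.21, SE 1.39, adjusted p = 0.0224). The homeobox gene HOXB7 did not overlap between groups, at 6.07 through 8.36 to 9.37 in high and 2.35 through 2.79 to 5.22 in low lines (4.98, SE 1.08, adjusted p = 0.00846). RGS17, a regulator of G protein signalling, ranged from 5.73 through 7.16 to 9.90 in high and from 1.70 through 2.47 to 5.34 in low lines, also without overlap (4.50, SE 1.10, adjusted p = 0.0151). CXCL14, an epithelial chemokine, and SERPINB2, an inhibitor of plasminogen activators, had no overlap either, with differences of 4.51 and 4.33. SERPINB2 was above log2 5 in OSCA_8, OSCA_50 and primary line 23 only, and OSCA_29 at 1.99 was level with the highest low line at 1.99. In all 6 tissues TSPAN13 (9.34 to 11.87), CA2 (8.04 to 10.63) and CXCL14 were over log2 5.

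**Figure D4:**
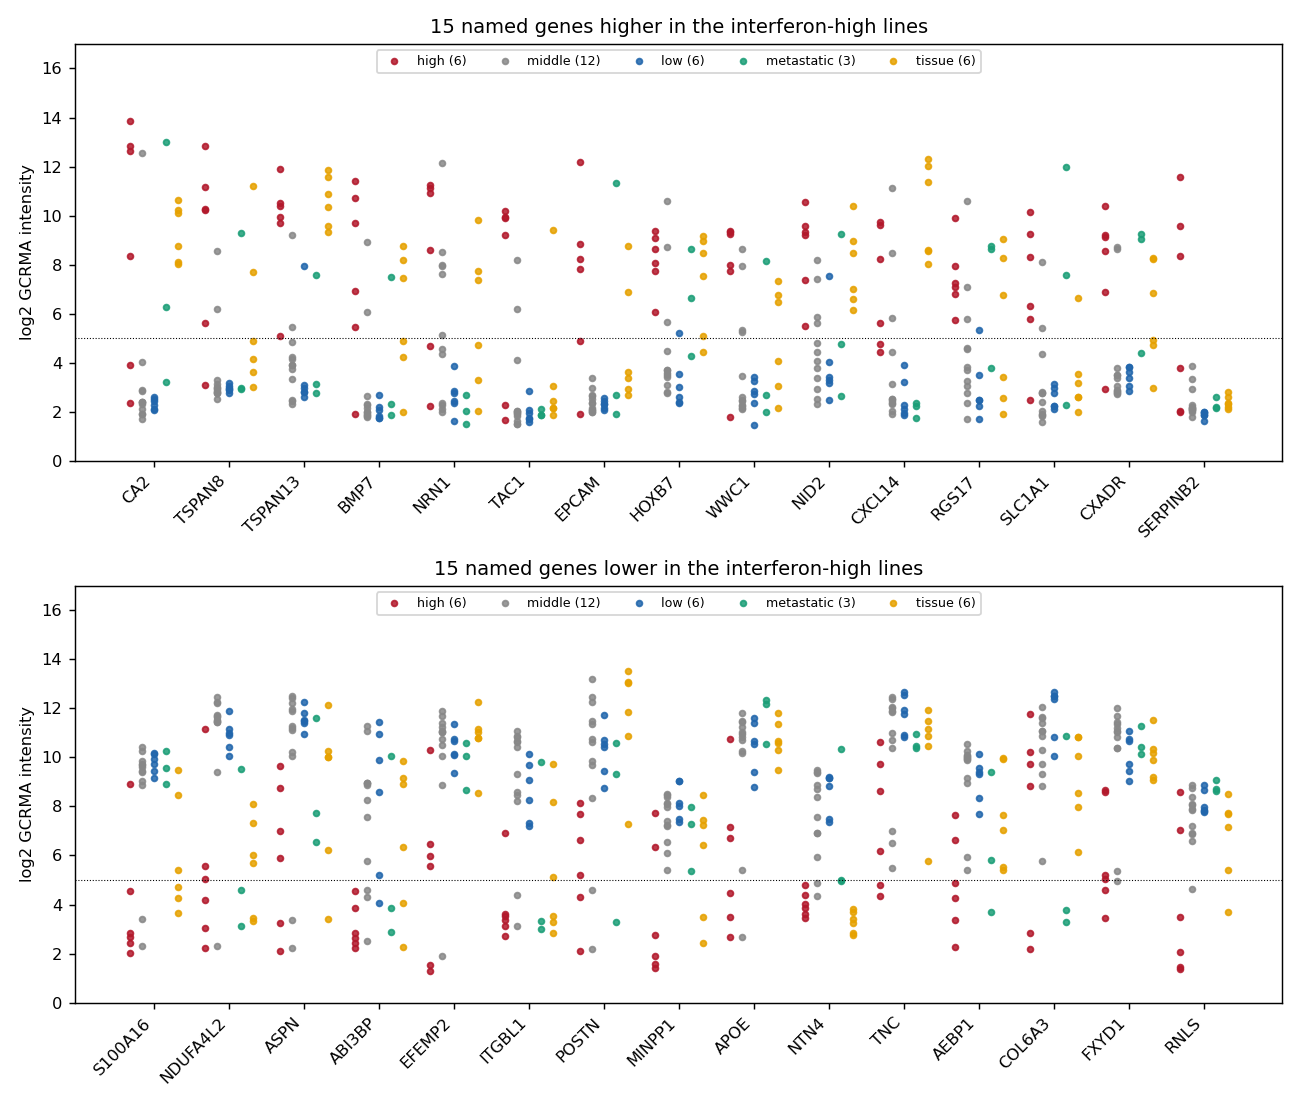
Level (vertical axis, log2 GCRMA intensity; dotted line at 5) of the 15 genes with the largest called difference in each direction, with 1 point per sample for 6 high, 12 middle and 6 low primary lines, 3 metastatic lines and 6 tissues. Most low lines lie under 5 for the upper genes and over 7 for the lower genes, and in both panels single high lines share the low level.

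The 15 genes with the largest called decrease were S100A16, NDUFA4L2, ASPN, ABI3BP, EFEMP2, ITGBL1, POSTN, MINPP1, APOE, NTN4, TNC, AEBP1, COL6A3, FXYD1 and RNLS. Periostin (POSTN), a matrix protein of periosteum, ranged from 2.12 through 5.93 to 8.15 in high and from 8.77 through 10.49 to 11.74 in low lines, without overlap (-4.58, SE 1.46, adjusted p = 0.0442). Asporin (ASPN), a small proteoglycan, ranged from 2.10 through 6.45 to 9.64 against 10.95 through 11.51 to 12.26, without overlap (-5.47, SE 1.59, adjusted p = 0.0325). Tenascin C (TNC) also had no overlap, with 4.33 to 10.63 in high and 10.86 to 12.68 in low lines (-4.41, SE 1.23, adjusted p = 0.0269). The collagen chain COL6A3 was 2.82 in OSCA_8 and 2.17 in OSCA_12, and 8.86 to 11.75 in the other high lines, against 10.05 to 12.66 in low lines, so 2 lines made most of its difference (-4.22, SE 1.32, adjusted p = 0.0417). Netrin 4 (NTN4), a secreted laminin-related protein, was uniformly low in the high lines, from 3.43 through 3.93 to 4.82, and ranged from 7.39 to 9.21 in low lines (-4.52, SE 0.76, adjusted p = 0.00235). All 6 tissues, which share title prefix 3, had NTN4 below log2 5, at 2.77 to 3.80, and thus stood with the high lines. S100A16, a calcium-binding protein, was 8.90 in OSCA_12 and 2.02 to 4.57 in the other 5 high lines, against 9.16 to 10.20 in low lines (-5.86, SE 1.27, adjusted p = 0.00866). NDUFA4L2, a mitochondrial protein induced by hypoxia, was 11.18 in OSCA_75, within the low range of 10.08 to 11.89, and 2.22 to 5.55 in the other high lines (-5.71, SE 1.40, adjusted p = 0.0154).

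The 30 genes marked the high lines unevenly. Of the 15 upper genes primary line 23 and OSCA_8 had 15 above the highest low line, OSCA_29 and OSCA_50 had 14, OSCA_75 had 11 and OSCA_12 had 8. Of the 15 lower genes OSCA_29 and primary line 23 had 15 below the lowest low line, OSCA_8 had 14, OSCA_50 and OSCA_75 had 13 and OSCA_12 had 12. Because these 30 genes were chosen for their difference in these lines, the counts in high lines are a description only. The middle line OSCA_71, with a score of 5.18, had 12 of the upper and 14 of the lower genes beyond the low lines, as many as several high lines. OSCA_60 had 11 of the upper and 3 of the lower genes, and primary line 4 had 7 and 11. Among metastatic lines OSCA_6 had 9 and 11, OSCA_16 had 9 and 9, and OSCA_11 had 3 and 2. Genes called higher had positive slopes on the score in tissues in 32.1% of cases, below the 46.2% over all genes, and genes called lower in 54.1%. Adjusted for title prefix, 17 of the 30 kept their call, and without OSCA_29 and OSCA_8 11 of the 30 did. Within title prefix 2 none of the 30 was called, although differences there were 3.59 to 5.89 for the upper genes and -6.01 to -3.61 for the lower ones.

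**Figure D5:**
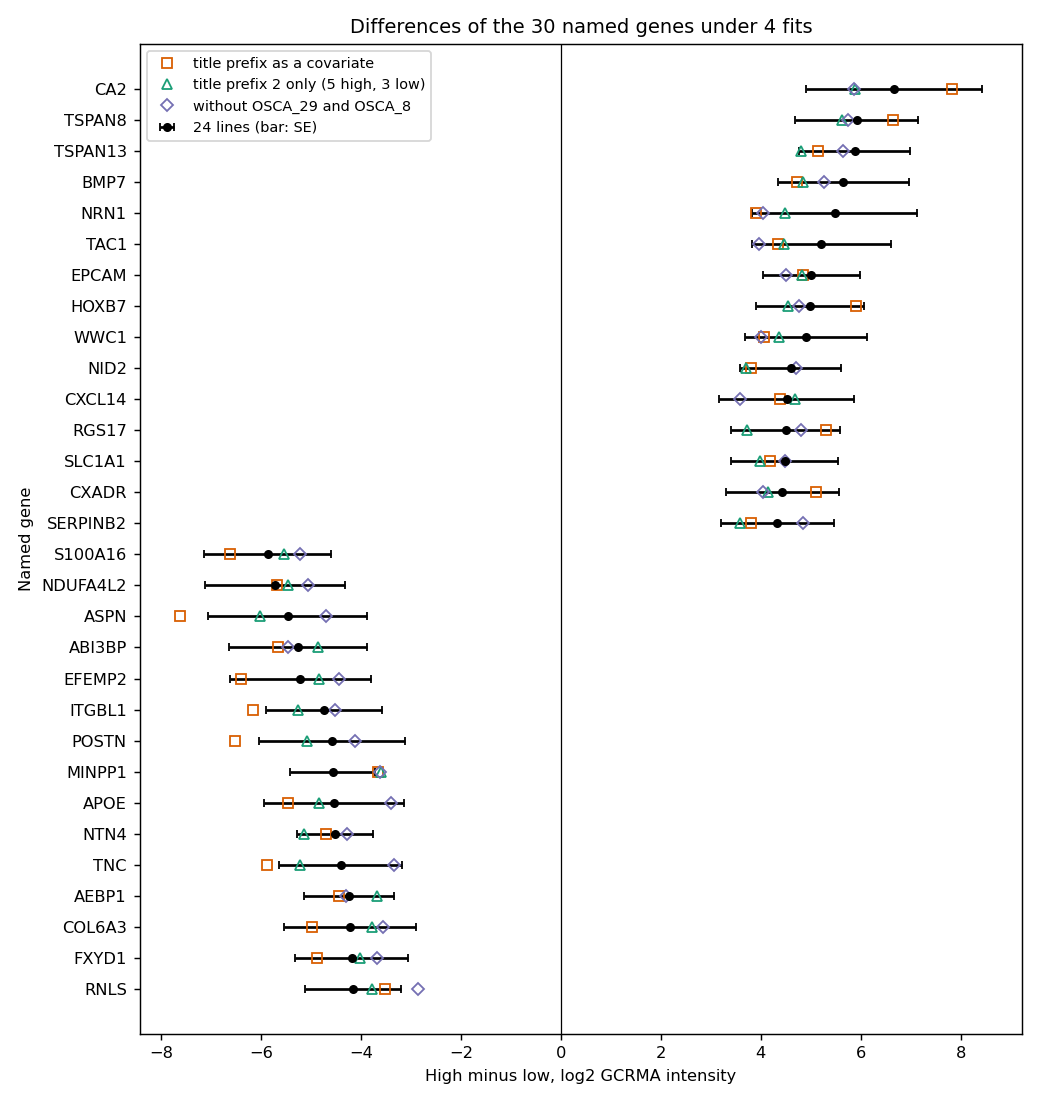
Difference of the 30 genes (horizontal axis, high minus low, log2 GCRMA intensity) in the fit over 24 lines (black points with bars of 1 SE), after adjustment for title prefix, within title prefix 2 (5 high, 3 low lines), and without OSCA_29 and OSCA_8. Every symbol lies on the same side of 0 as its black point.

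The smallest p-value belonged to the homeobox gene HOXA4, which ranged from 5.63 through 6.79 to 7.31 in high and from 3.55 through 4.38 to 4.86 in low lines, without overlap (2.35, SE 0.30, adjusted p = 0.000362). HOXA4 was called in 34 of 34 fits, and it was the gene called within title prefix 2 alone (2.21, adjusted p = 0.00469). A dimmer probe set of HOXA4 differed by 0.56 only, so the probe sets disagree on the size. The chloride channel protein CLIC4 ranged from 8.39 through 9.32 to 10.42 in high and from 11.24 through 11.88 to 12.73 in low lines (-2.48, SE 0.35, adjusted p = 0.000562). The lymphangiogenic growth factor VEGFC ranged from 4.67 through 6.09 to 8.13 against 9.70 through 10.16 to 10.37 (-3.94, SE 0.62, adjusted p = 0.00184), also without overlap. HOXA4, CLIC4 and VEGFC were singled out after their p-values were seen. All 3 kept their call after adjustment for title prefix and without OSCA_29 and OSCA_8.

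Of 15 tested G2/M genes of cell division 7 were called higher in the high lines and 0 lower, against 6.4% and 4.67% of all genes, all 15 differences were positive, and their median was 2.54. The topoisomerase TOP2A ranged from 11.27 through 12.05 to 12.77 in high and from 5.22 through 8.83 to 9.80 in low lines, without overlap (3.67, SE 1.09, adjusted p = 0.0352). The mitotic kinase PLK1 had no overlap either, at 9.08 through 9.47 to 10.81 against 5.09 through 6.76 to 8.79 (3.03, SE 0.94, adjusted p = 0.0409). The kinase AURKB, at 8.79 through 9.46 to 10.66 against 4.62 through 6.42 to 8.89, overlapped only through OSCA_12 and primary line 3 (3.22, SE 0.87, adjusted p = 0.0232). CENPF, a kinetochore protein, was 5.30 in OSCA_12 and 8.03 to 10.30 in the other high lines, against 3.76 to 6.47 in low lines (3.87, SE 0.89, adjusted p = 0.0118). Of 20 tested G1/S and replication genes 4 were called higher and 0 lower, with a median of 1.65, among them the cyclin CCNE1 (2.09, adjusted p = 0.0435) and the replication factor CDC45 (2.99, adjusted p = 0.0231). The mean level of the 15 G2/M genes ran from 7.82 in OSCA_12 to 9.91 in primary line 23, and from 5.10 to 8.44 in low lines. The middle line OSCA_71 stood at 9.68 and OSCA_57, OSCA_59, OSCA_73 and OSCA_41 at 3.50 to 4.18, so the middle lines spanned a wider range than either group. In tissues none of the 15 slopes on the score was positive, and tissue 6, with the lowest score, had the highest mean at 9.79. Adjusted for title prefix, AURKB and CDC45 were called (adjusted p = 0.0467 and 0.0483), and TOP2A (3.18, adjusted p = 0.147), PLK1 (2.79, adjusted p = 0.141), CENPF (3.74, adjusted p = 0.0562) and CCNE1 (2.55, adjusted p = 0.0567) were not.

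Of 13 tested fibroblast matrix genes 3 were called lower in the high lines and 0 higher, against 4.67% and 6.4% of all genes, 12 of 13 differences were negative, and the median was -1.83. The called members were POSTN, COL6A3 and the receptor PDGFRB, which ranged from 3.05 through 5.19 to 6.62 in high and from 6.28 through 8.48 to 9.98 in low lines (-3.09, SE 0.93, adjusted p = 0.037). Decorin (DCN) was 9.38 to 13.43 in high and 13.63 to 14.18 in low lines, without overlap but also without a call (-1.97, SE 1.08, adjusted p = 0.228). Fibroblast activation protein (FAP) was 3.14 in OSCA_12 and 11.32 in OSCA_29, with a difference of -3.55 that was not called (adjusted p = 0.108). Of 10 tested osteoblast and bone matrix genes 0 were called, with a median of -0.19. Alkaline phosphatase (ALPL) was 9.90 in OSCA_50 and 2.50 to 5.57 in the other high lines, against 1.74 to 3.24 in low lines (2.50, SE 1.04, adjusted p = 0.11). Adjusted for title prefix, POSTN differed by -6.53 (adjusted p = 0.0363), and COL6A3 (-4.98, adjusted p = 0.0765) and PDGFRB (-3.68, adjusted p = 0.0649) were not called.

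Of the lower genes that are not matrix proteins, MINPP1, an inositol phosphate phosphatase, and RNLS, the enzyme renalase, split the high lines alike. MINPP1 was 1.59 in OSCA_29, 1.89 in OSCA_8, 1.40 in primary line 23 and 2.75 in OSCA_75, but 6.35 in OSCA_12 and 7.72 in OSCA_50, against 7.37 to 9.03 in low lines. RNLS was 1.35, 1.45, 2.06 and 3.50 in the same 4 lines, 8.59 in OSCA_12 and 7.05 in OSCA_50, against 7.76 to 8.87 in low lines. All 12 middle lines had MINPP1 at 5.39 or more and RNLS at 4.62 or more, so both genes were near background in 4 of the 6 high lines and in none of the 18 other primary lines except RNLS at 4.62 in OSCA_71. The differences were -4.57 for MINPP1 (SE 0.85, adjusted p = 0.00469) and -4.16 for RNLS (SE 0.96, adjusted p = 0.012). In tissues 3 and 6 MINPP1 was 2.44 and 3.50, while the other tissues had MINPP1 at 6.44 or more.

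MTAP, a purine salvage enzyme whose neighbours in the gene table include CDKN2A and the interferon genes IFNE and IFNA7, was 1.84 in OSCA_29 and 1.55 in primary line 23 and 8.79 to 11.51 in the other high lines. Low lines lay between 10.09 and 10.68, so 2 high lines carried the whole difference (-3.11, SE 1.52, adjusted p = 0.175). The middle line OSCA_71 had MTAP at 1.70 and tissue 4 at 3.88, so a low level was seen outside the high lines too. Among 17 tested genes of nucleic acid clearance and silencing 4 were called higher and 0 lower, against 6.4% and 4.67% of all genes, namely RNASEH2C, UHRF1, BANF1 and ATRX. ATRX, a chromatin remodeller, was 8.74 to 10.64 in high lines and 9.61 to 9.97 in OSCA_56, OSCA_23 and OSCA_22, but 6.12, 4.71 and 5.45 in primary lines 3, 1 and 2. The low values of ATRX were those of title prefix 1, and after adjustment for title prefix the difference was 0.65 (adjusted p = 0.16) in place of 2.33 (adjusted p = 0.0498). UHRF1, a cofactor of DNA methylation maintenance, ranged from 3.22 through 5.79 to 7.04 in high and from 2.56 through 3.46 to 3.85 in low lines (2.05, SE 0.67, adjusted p = 0.0483). Adjusted for title prefix, UHRF1 was not called (1.64, adjusted p = 0.203), and it was called in 10 of 33 fits.

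Labels of the dogs were compared as a measure that the score did not use. Survival, in a unit the labels do not state, was 0.1 to 7.66 with a median of 2.33 in 5 dogs of the high group and 0.23 to 13.97 with a median of 4.04 in 5 dogs of the low group. The difference of mean log2 survival was -1.08 (two-sided exact permutation p = 0.484), and the smallest p that 5 against 5 allows is 0.00794. Age at diagnosis was 6.44 ± 3.07 (SD, n = 6) against 8.66 ± 1.71 (n = 5), with an exact permutation p = 0.221. Males were 4 of 6 against 4 of 5 (Fisher exact p = 1), counting the sex codes M and MC, and Rottweilers 4 of 6 against 3 of 5 (Fisher exact p = 1). Title prefix 2 held 5 of 6 against 3 of 6 lines (Fisher exact p = 0.545). Over these 5 label tests the lowest Benjamini-Hochberg adjusted p was 0.909, so no label passed the test.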

How the data were processed

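The deposited table held a linear intensity for 43035 probe sets on each of 34 Canine_2 arrays. The submitters' processing notes name GCRMA as what the authors used to make these intensity values, with no version. The scale is linear, and log2 values were used, with a floor of 1 that 0 values lay under. Arrays have no read depth, and their number limits the precision. Control probe sets (111) were dropped. The platform annotation names 1 gene for 29264 probe sets and several for 439, with no entry for 13332. The gene table of UU_Cfam_GSD_1.0 matched 27690 of the named ones and changed 0 symbols. A filter asked for log2 over 5 on 3 or more arrays and left 18592 probe sets, 14059 of them with 1 symbol. These stand for 7849 genes, each by its brightest probe set on average (4313 genes had several).

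Lines were ranked, and high (6), middle (12) and low (6) lines entered 1 fit in limma 3.58.1 (lmFit and eBayes, R 4.3.3) without covariates. Benjamini-Hochberg adjustment ran over all genes tested, and an adjusted p under 0.05 was called. P-values rest on separate dogs. Slopes on the score were fitted in the 12 middle lines and the 6 tissues. Named genes were the 15 called genes with the largest difference in each direction, and any member of the gene lists could be named. The members, lists and tests were chosen with earlier results of these data known. HOXA4, CLIC4 and VEGFC were named after their values were seen. The high against low test was also run on simulated data of 7849 genes. It recovered 29.9% of changes of log2 1, 67.2% of log2 2 and 100% of log2 4, with 6 false calls. In the measured data the SD could differ between groups, as for CA2 with 4.94 in high and 0.21 in low lines. Whether the recovery and the number of false calls carry over to the measured data was not tested. Alternatives covered the ranking, the filter, the scaling, the probe set, prefix, sex and each line left out. Promoter motifs, planned at the start, were not counted, because no promoter sequences were used here.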

Additional observations from a re-analysis of the deposited data

Results flagged for a closer look

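Within each group of 6, a line was picked out where its gap to the nearest other line was over Dixon's 95% critical share of the group's range. Of 144 groups over 72 genes 17 met this, 10 among high and 7 among low lines. Independent values from a normal distribution meet it in about 5% of groups. The genes here were chosen and are not independent, so 5% is not the rate to set beside the 17. No explanation was tested.

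OSCA_12 stood apart among the high lines in several of the largest differences. TSPAN13 was 5.08 there (next 9.70), WWC1 was 1.79 (next 7.72) and S100A16 was 8.90 (next 4.57), each time at or towards the level of the low lines. OSCA_75 did so for NDUFA4L2 at 11.18 (next 5.55), ITGBL1 at 6.91 (next 3.59) and LAP3 at 12.77 (next 11.16), and had the lowest COL1A1 of the high lines at 12.59. OSCA_29 was apart for DDX60 at 11.98 (next 4.40) and CCL5 at 10.41 (next 3.10). Primary line 23 had the lowest ATRX of the high lines at 8.74.

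Among low lines, OSCA_56 was highest for TSPAN13 at 7.93 (next 3.08) and for DCN at 14.18, and OSCA_23 was highest for NID2 at 7.54 (next 4.04) and for CCL5 at 2.35, which is near background. Primary line 2 was lowest for PARP14 at 3.34 (next 4.80) and for SERPINB2 at 1.63, also near background. OSCA_22 was lowest for ACTA2 at 10.87 (next 13.08).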

How the results depend on the processing

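The counts of 502 higher and 366 lower genes moved most in the fits by prefix and with single lines left out. The fits by prefix rest on fewer lines. Calls were 142 and 130 after adjustment for title prefix, 1 and 0 within title prefix 2, 99 and 33 within title prefix 2 ranked again, and 103 and 74 without OSCA_29 and OSCA_8. They were 207 and 150 when ranked without ISG15, 311 and 233 for the top 8 against the bottom 8, and 172 and 125 with only the title prefix 3 array of OSCA_71. The score as a numeric covariate over 24 lines gave 231 lower genes. Leaving out 1 line gave 189 to 676 higher and 131 to 473 lower genes. Fits within title prefix 2 ranked again, without OSCA_29 and OSCA_8, and with a difference of at least 1 were chosen after seeing the data. The other settings stayed within 1.5 times, and the slope fits in middle lines and tissues called 0 genes under each alternative run. The label tests stayed above 0.05 with the top 8 against the bottom 8 and, for survival, on the linear scale. Survival among dogs labelled SOC alone, 1 against 3, has no test.

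The 30 named genes kept their direction in all 660 fits with another setting and all 360 with 1 line left out, and lost their call in 158 and 60 of them. Of the 660, 30 belong to the setting with a difference of at least 1, which repeats the first fit. Differences that changed sign were not called: STAT2 (0.017 with the score as covariate, 0.077 within title prefix 2, 0.092 ranked again there), IFNAR1 (0.22 after adjustment for title prefix, 0.21 within title prefix 2), COL1A2 (0.48 with the most variable probe set) and B2M (-0.052 without OSCA_29 and OSCA_8). The causes were not tested. No paired analysis was possible because each line came from a separate dog and replicate numbers pair no high line with a low line.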
